A study of Mus musculus with 24 samples.

Results

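Ostn, Ptn, Mdk and Tex101 are 4 of the 55335 genes measured in tumours of the mouse colon carcinoma line MC38 and the mouse melanoma line B16. Ostn, Ptn and Tex101 were chosen by their measured FPKM (fragments per kilobase of transcript, scaled to the size of the library), which differed strongly in MC38 between tumours with and without Chek2, which encodes the checkpoint kinase CHK2 of the DNA damage response. Their MC38 differences are therefore given below as a description, with no test. Mdk was added as the relative of Ptn, not for its own difference, and was tested in both lines. The tumours came from parental cells with intact Chek2 (WT) or from Chek2 knock-out cells (KO), and treatment was PBS or anti-PD-1, an antibody that blocks a checkpoint receptor on T cells. This gave 8 groups of 3 libraries, 4 groups for each line: WT with PBS, WT with anti-PD-1, KO with PBS and KO with anti-PD-1. All are whole tumour tissue, in which host cells keep their own Chek2. The strain, sex and age of the mice, the number of knock-out clones and the timing of treatment are not given in the sources used here. Nor is it given whether the libraries within a group are separate mice, so the p-values measure the spread between these libraries, which may be technical.

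The 4 genes encode secreted or surface proteins. Ostn encodes osteocrin, also called musclin, a peptide of bone and muscle. Osteocrin binds the clearance receptor Npr3, which otherwise removes natriuretic peptides, and so leaves more of those peptides for the guanylyl cyclase receptors Npr1 and Npr2, whose product cyclic GMP acts through the kinases Prkg1 and Prkg2. Ptn (pleiotrophin) and Mdk (midkine) form a family of heparin-binding growth factors; they bind the receptor phosphatase Ptprz1, syndecans, integrins and other receptors, and their binding depends on sulfated sugar chains. Tex101 encodes a surface glycoprotein of the Ly6/uPAR family, anchored by a lipid and best known from germ cells of the testis.

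All positions are on mouse build mm10, which is GRCm38. Ostn (ENSMUSG00000052276) lies on chr16:27307489-27351212, plus strand, and Ptn (ENSMUSG00000029838) on chr6:36714929-36810220, minus strand. Mdk (ENSMUSG00000027239) lies on chr2:91929805-91932297 and Tex101 (ENSMUSG00000062773) on chr7:24668007-24676675, both on the minus strand. The 250 bases before the RefSeq start (GRCm38.p6) are shown for the 2 of the 4 genes matched in the promoter table: Tex101, which was lower in MC38 KO, and Ptn, which was higher. Those of Ostn and Mdk are not used here. Both read 5′ to 3′ along the gene, with each CCAAT, or ATTGG for the same letters on the other strand, in capitals. The Tex101 stretch is chr7:24672051-24672300, minus strand, whose start lies inside the longer gene model given above. The Ptn stretch is chr6:36810180-36810429, minus strand. Its last bases also lie inside the gene model given above, which reaches 36810220.
Tex101: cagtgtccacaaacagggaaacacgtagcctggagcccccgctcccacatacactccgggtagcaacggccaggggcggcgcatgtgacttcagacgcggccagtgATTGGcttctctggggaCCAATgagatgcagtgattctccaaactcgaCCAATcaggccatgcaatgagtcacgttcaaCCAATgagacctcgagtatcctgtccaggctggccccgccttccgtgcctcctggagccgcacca
Ptn: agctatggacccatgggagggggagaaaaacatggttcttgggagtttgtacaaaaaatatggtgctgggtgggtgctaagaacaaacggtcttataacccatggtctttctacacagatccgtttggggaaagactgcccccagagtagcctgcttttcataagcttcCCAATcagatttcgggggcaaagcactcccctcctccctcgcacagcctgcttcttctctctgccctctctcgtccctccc
The Tex101 stretch holds 4 matches to CCAAT, at 144, 127, 96 and 65 bases before the start, and the Ptn stretch holds 1, at 81 bases. Of 32851 promoters of the same length in the RefSeq table, 33.8% hold at least 1 CCAAT on either strand and 0.84% hold at least 4. Tex101 also has 1 match to GGGCGG (32.7% of promoters) and 1 to TGANTCA (6.75%), and Ptn has neither. TATAAA (12.4% of promoters) and CACGTG (6.02%) are in neither stretch. The matches describe letters only, and no factor's binding was measured.

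Estimated depth was 13210000 to 23840000 fragments per library, and replicates of a group correlated across genes at r = 0.979 to 0.992 on the log2 scale. The FPKM of a library summed to 375193 to 398474 in B16 KO anti-PD-1 and to 310868 to 344059 in the other groups. Chek2 itself stood at 4.61 to 6.14 FPKM in MC38 WT and 1.92 to 3.37 in MC38 KO libraries, and at 7.17 to 9.29 in B16 WT and 5.64 to 6.75 in B16 KO. The summed FPKM of 6 melanocyte markers was 4783 to 6168 in B16 and at most 3.17 in MC38. MC38 tumours held little of the 9 epithelial markers of the gut, with sums of 1.18 to 49.2 and Cdx2 at 0 in all 12 libraries. Some libraries stood apart by RNA of muscle: the sum of 10 skeletal muscle markers was 319.9 in MC38 WT anti-PD-1 replicate 2, 472 in MC38 KO anti-PD-1 replicate 2 and 1901 in B16 KO anti-PD-1 replicate 1. In bulk tissue, fewer cells of a type and less RNA per cell cannot be told apart.

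Ostn was close to the detection limit in MC38 WT tumours and among the better expressed protein-coding genes in MC38 KO tumours. WT libraries read 0.361, 0.444 and 1.13 FPKM under PBS, and 0.345, 0.684 and 0.258 with anti-PD-1. KO libraries read 15.0, 10.9 and 11.3 FPKM under PBS, and 10.1, 10.5 and 12.3 with anti-PD-1. All 6 KO libraries were above all 6 WT libraries, and the antibody groups overlapped within each genotype. The KO mean was 19.2 times the WT mean under PBS (12.4 ± 2.23 against 0.646 ± 0.424 FPKM, SD, n = 3) and 25.6 times under anti-PD-1 (10.96 ± 1.18 against 0.429 ± 0.225, n = 3). The lowest KO library was 9.6 times the highest WT library under PBS and 14.8 times under anti-PD-1. On the scale of log2(FPKM + 1), on which all log2 differences here are given, KO was 3.04 ± 0.18 (SE) higher under PBS and 3.07 ± 0.18 under anti-PD-1. These were the 6th and 3rd highest values among the 14209 MC38 genes that passed the filter of at least 1 FPKM in at least 3 of 12 libraries. Ostn passed it with 7 of 12 libraries, of which 6 were KO. In KO libraries Ostn ranked at the 80.4th to 86.2nd percentile of protein-coding genes, against the 42.5th to 50.9th in WT. Its values correspond to about 214 to 348 fragments per KO library and 5.7 to 24.7 per WT library, an estimate from the low values and the transcript's length, 1423 bases.

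Osteocrin is known from bone and muscle, so markers of both were read in the same libraries. The sum of 8 bone markers was 3.37 to 5.59 FPKM in MC38 WT and 3.57 to 4.98 in MC38 KO, and the groups overlapped. Muscle sums were 3.35 to 319.9 in WT and 3.48 to 472 in KO. The KO library with the lowest muscle sum, PBS replicate 3 at 3.48, had 11.3 FPKM of Ostn, and the one with the highest, anti-PD-1 replicate 2 at 472, had 10.5. Fibroblast markers moved with genotype under PBS: the sum of 8 was 754 to 973 in WT and 427 to 469.5 in KO, and under anti-PD-1 447 to 814 in WT and 362 to 905 in KO. So did 6 leukocyte markers, at 65.7 to 81.5 in WT and 26.8 to 59.5 in KO under PBS, while under anti-PD-1 KO was higher (93.8 to 107 against 72.8 to 81.7). Ostn was 10.1 to 15.0 FPKM in KO across that whole range of leukocyte sums. What part these cells have in the difference was not tested.

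**Figure D1:**
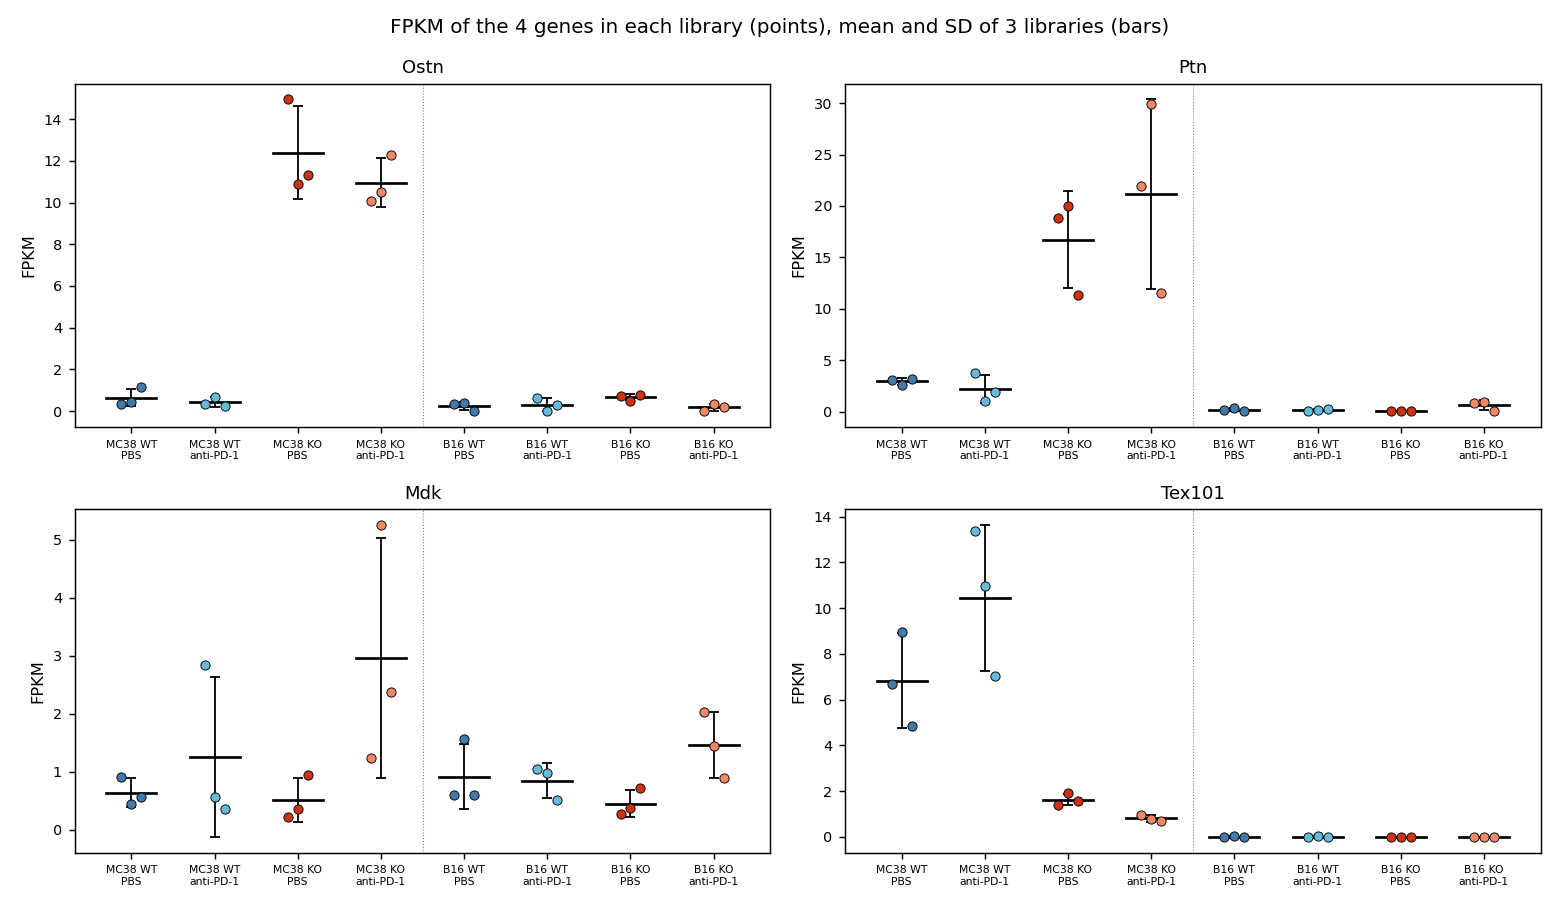
FPKM (linear axis) of Ostn, Ptn, Mdk and Tex101 in the 8 groups; points are libraries, horizontal lines means and error bars SD of 3 libraries, and the dotted line parts MC38 from B16. Ostn and Ptn are high in the 6 MC38 KO libraries, Tex101 in the 6 MC38 WT libraries, and Ostn, Ptn and Tex101 are under 1 FPKM in every B16 library.

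Of the receptors through which osteocrin is known to act, Npr3 and Npr2 were higher in MC38 KO. Npr3, the clearance receptor, read 0.368, 0.407 and 0.155 FPKM in WT and 1.54, 1.41 and 1.14 in KO under PBS. With the antibody, it read 0.487, 0.754 and 0.218 in WT and 1.02, 1.83 and 1.64 in KO. The groups did not overlap. Only KO libraries reached 1 FPKM, so Npr3 passed the filter through the group in which it was high, and its test is taken from a fit with no filter on level. There its log2 difference was 0.85 under PBS (limma adjusted p = 0.0168) and 0.75 under anti-PD-1 (limma adjusted p = 0.0454). With the filter, the second call ended when WT anti-PD-1 replicate 1 or 3, or KO anti-PD-1 replicate 2 or 3, was left out (limma adjusted p = 0.0533, 0.0632, 0.0652 and 0.0702). It was also lost in a fit of only the 2 groups (limma adjusted p = 0.0617).

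Npr2, the guanylyl cyclase receptor of C-type natriuretic peptide, read 1.88, 2.18 and 2.37 FPKM in WT and 3.89, 3.84 and 4.08 in KO under PBS. Under anti-PD-1 it read 1.29, 1.64 and 1.78 in WT and 3.01, 3.25 and 3.08 in KO. KO was above WT in every library, with log2 differences of 0.65 ± 0.09 (limma adjusted p = 0.00107) and 0.68 ± 0.09 (limma adjusted p = 0.00163). Prkg2, a kinase that cyclic GMP activates, rose from 14.1 ± 1.69 to 38.0 ± 6.59 FPKM under PBS (n = 3, limma adjusted p = 0.00117) and from 15.7 ± 4.73 to 30.4 ± 2.55 under anti-PD-1 (n = 3, limma adjusted p = 0.0115). Npr1, the receptor of atrial and B-type natriuretic peptides, stayed at 0.221 to 0.860 FPKM in MC38 except KO anti-PD-1 replicate 2, at 1.80, and was under the filter. Npr1 fell outside the rule for named genes and was chosen after its values were seen. Averaged over treatments, the KO effect was higher in MC38 than in B16 for Npr2 and Prkg2 (log2 differences of 0.58 and 0.76, limma adjusted p = 0.000994 and 0.00682). In B16, Npr3 and Prkg2 reached at most 0.257 and 1.49 FPKM, and were under the filter. Prkg2 also rose in B16 on average, since both its MC38 log2 differences, 1.36 and 0.96, exceed the 0.76 between the lines. That B16 rise was not tested, and the pseudocount understates it at so low a level.

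The natriuretic list holds 20 genes: ligands, receptors, processing enzymes, effectors of cyclic GMP and also transcription factors of the Mef2 family. The counts below include the Mef2 genes, so they are not counts of the peptide and cyclic GMP genes alone. In MC38, 12 of them passed the filter. Under PBS, 3 rose (Npr2, Npr3 and Prkg2) and 2 fell, against backgrounds of 11.9% of all tested genes called higher and 11.6% called lower. The 2 that fell were Nppb, which encodes B-type natriuretic peptide (log2 difference -0.82, limma adjusted p = 0.0452), and Mef2a, a muscle transcription factor (-0.26, limma adjusted p = 0.0462). Both calls were fragile: Nppb passed in 7 and Mef2a in 8 of 20 alternative settings. Under anti-PD-1, 5 of the 12 rose, the same 3 with Pde5a (0.35) and Pde3b (0.29), enzymes that break down cyclic nucleotides, and none fell, against 5.01% of all tested genes called higher and 7.05% called lower. Without Npr3, whose passing of the filter rested on KO, 2 of 11 rose and 2 fell under PBS, and 4 of 11 rose under anti-PD-1. The median log2 difference of the list was 0.23 under PBS and 0.32 under anti-PD-1, beside 0.01 and 0.00 over all tested genes. In B16, 9 passed the filter: none was called under PBS (background 0.279% higher and 0.191% lower), and 1 rose and 4 fell under anti-PD-1 (14.9% and 25.9%), among them Prkg1 (-0.78, limma adjusted p = 0.000855). The riser was Vasp (0.40, limma adjusted p = 0.0122), and the others that fell were Mef2c, Pde5a and Mef2a. Pde3b, and Pde5a in both lines, are named after their values were seen.

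**Figure D2:**
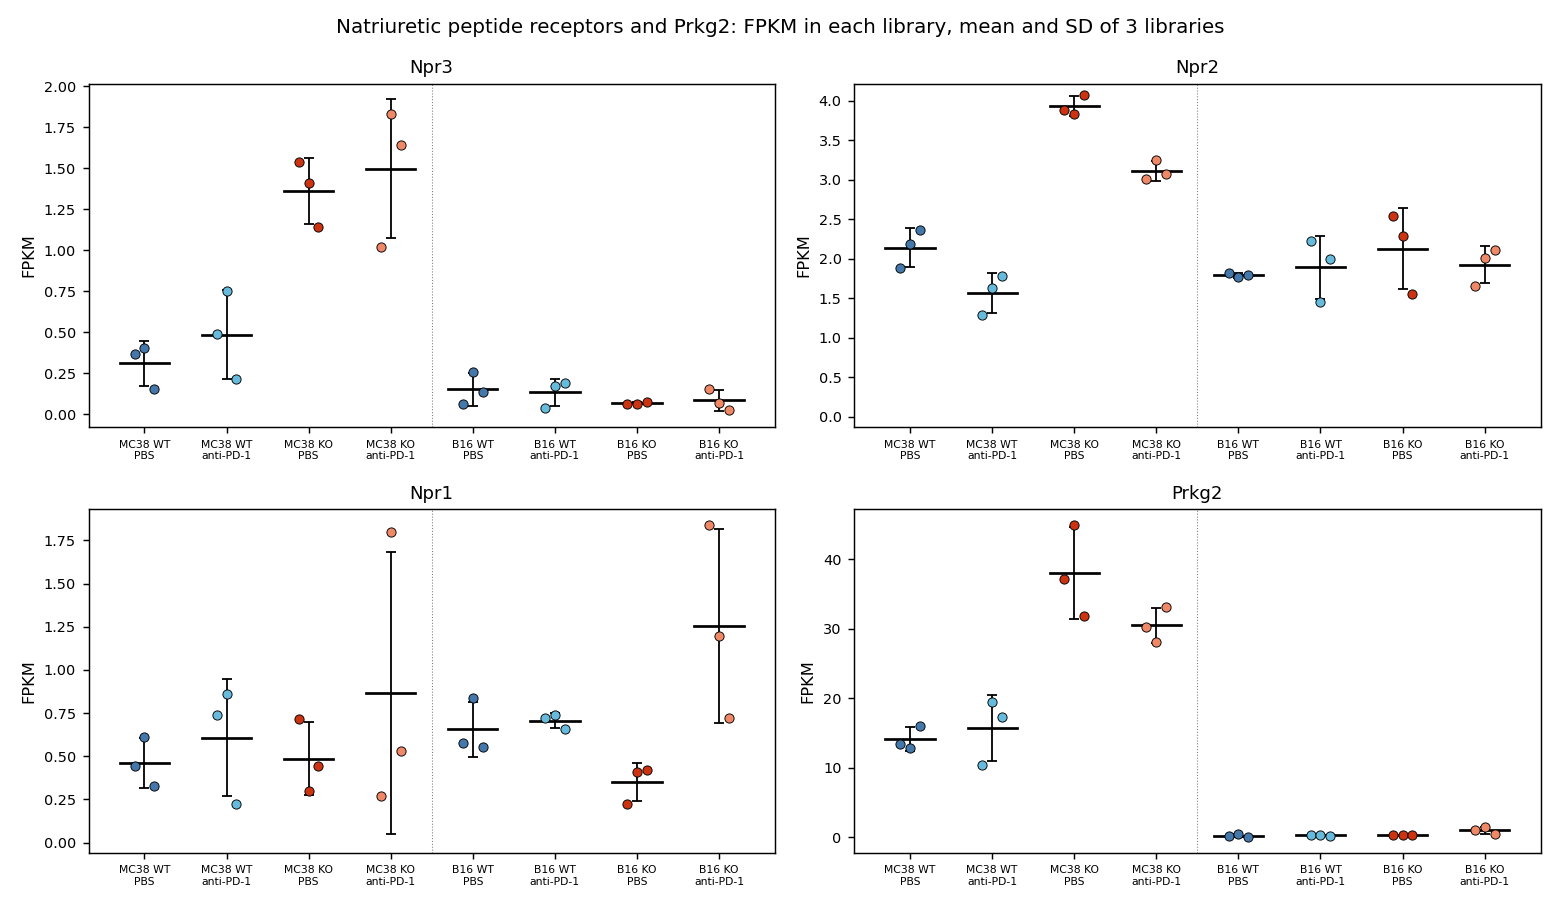
FPKM (linear axis) of Npr3, Npr2, Npr1 and Prkg2 in the 8 groups; points are libraries, horizontal lines means and error bars SD of 3 libraries. In MC38 the KO libraries are above the WT libraries for Npr3, Npr2 and Prkg2 and overlap them for Npr1, and Prkg2 is under 1.5 FPKM in B16.

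Ptn was expressed at a low level in MC38 WT tumours and was several times higher in MC38 KO tumours. WT libraries read 3.11, 2.57 and 3.19 FPKM under PBS, and 3.72, 1.05 and 1.93 with anti-PD-1. KO libraries read 18.8, 20.0 and 11.3 under PBS, and 21.9, 29.96 and 11.5 with anti-PD-1. The 6 KO libraries were above the 6 WT libraries, but spread more widely than for Ostn: in each treatment replicate 3 was the lowest KO library. The KO mean was 5.66 times the WT mean under PBS (16.7 ± 4.72 against 2.95 ± 0.339 FPKM, n = 3), a log2 difference of 2.13 ± 0.35, the 25th highest of 14209. Under anti-PD-1 it was 9.47 times the WT mean (21.1 ± 9.24 against 2.23 ± 1.36 FPKM, n = 3), a log2 difference of 2.77 ± 0.35, the 5th highest. Ptn had a higher mean level than Ostn in both KO groups per length of transcript, but not in replicate 3 of either (11.3 against 11.3 FPKM under PBS, 11.5 against 12.3 with the antibody). Ptn exceeded 1 FPKM in all 12 MC38 libraries, with about 489 to 1256 fragments in KO and 50 to 188 in WT. Pleiotrophin is also known from glia, and the sum of 6 Schwann and glial markers overlapped between MC38 WT (7.53 to 9.13 FPKM) and KO (6.69 to 10.7).

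Mdk, the other member of the family, did not follow Ptn. MC38 WT libraries read 0.914, 0.437 and 0.571 FPKM under PBS, and 2.84, 0.568 and 0.353 with anti-PD-1. KO libraries read 0.225, 0.357 and 0.943 under PBS, and 1.24, 5.25 and 2.37 with anti-PD-1. WT and KO overlapped in both treatments, and 4 of 12 libraries reached 1 FPKM. These were the KO anti-PD-1 libraries and WT anti-PD-1 replicate 1, so Mdk passed the filter through the group in which it was high. Its MC38 tests share that limit. The log2 difference of KO against WT was -0.14 ± 0.42 under PBS (limma adjusted p = 0.844) and 0.84 ± 0.42 under anti-PD-1 (limma adjusted p = 0.219). Averaged over treatments it was 0.35 ± 0.30 (limma adjusted p = 0.417), in a comparison with 27.4% of genes called.

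With the antibody, Mdk in KO tumours went from a mean of 0.508 ± 0.382 to 2.95 ± 2.07 FPKM (n = 3), with no overlap. This log2 difference of 1.29 ± 0.42 missed the threshold (limma adjusted p = 0.0864, 0.0349 to 0.281 over 20 alternatives), where 8.99% of genes were called. With no filter on level it was not called either. With a pseudocount of 0.1 the difference was 2.28. It passed in the fit of all 24 libraries (limma adjusted p = 0.0349). Leaving out replicate 1 of WT anti-PD-1 also made it pass (0.0398), as did leaving out replicate 1 of the KO group (0.046). In WT the difference was 0.31 ± 0.42 (limma adjusted p = 0.785); there 0 of 14209 genes were called by limma (0%), and 1953 had an unadjusted p under 0.05. The direction in WT rested on anti-PD-1 replicate 1, without which the value was -0.16. The genotype by treatment interaction of Mdk was 0.98 ± 0.60 (limma adjusted p = 0.400, background 2.44%).

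The 4 MC38 libraries with the highest Mdk were also the 4 with the highest sums of 6 pericyte and smooth muscle markers. These sums were 104 FPKM in KO anti-PD-1 replicate 2 (Mdk 5.25), 43.7 in WT anti-PD-1 replicate 1 (Mdk 2.84), 55.3 in KO anti-PD-1 replicate 3 (Mdk 2.37) and 48.9 in KO anti-PD-1 replicate 1 (Mdk 1.24). The other 8 libraries had sums of 15.8 to 40.5 and Mdk of 0.225 to 0.943. The same 4 libraries also had the highest sums of 7 endothelial markers, at 26.6 to 54.6 FPKM against 14.8 to 26.2 in the other 8. So the match is not particular to pericyte and smooth muscle markers. KO anti-PD-1 replicate 2 also had the highest sums of epithelial (49.2), endothelial (54.6), fat (116) and muscle (472) markers among the MC38 libraries. Tex101 ran with the pericyte and smooth muscle sums in opposite directions in the genotypes, but these sums also followed treatment. In KO they were 22.8 to 34.9 under PBS and 48.9 to 104 under anti-PD-1, so marker sum and treatment cannot be told apart. Within each KO treatment Tex101 had no steady order. The highest WT sums were anti-PD-1 libraries as well. From the lowest sum to the highest (15.8 to 43.7), the WT libraries read 4.83, 7.04, 8.97, 6.70, 10.9 and 13.4 FPKM of Tex101. In KO, from 22.8 to 104, they read 1.59, 1.90, 1.39, 0.968, 0.702 and 0.758. In the same order of KO libraries, Ptn read 11.3, 20.0, 18.8, 21.9, 11.5 and 29.96 FPKM, and Ostn 11.3, 10.9, 15.0, 10.1, 12.3 and 10.5. What part these cells have in the values was not tested.

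**Figure D3:**
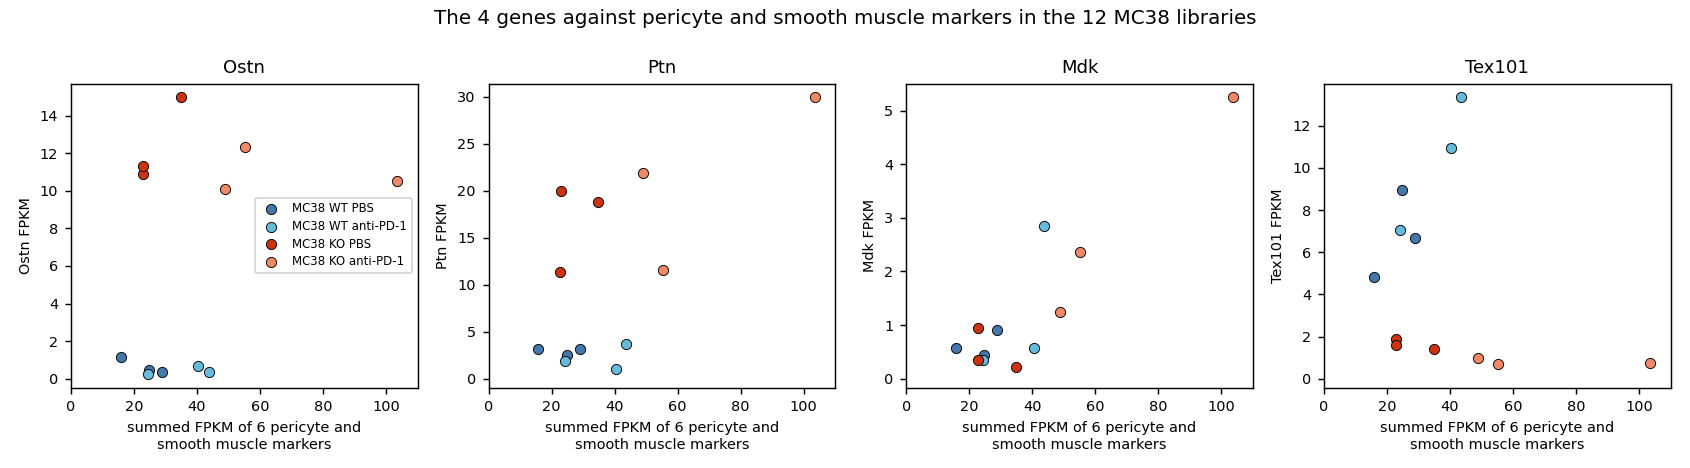
FPKM of each gene (vertical, linear) against the summed FPKM of 6 pericyte and smooth muscle markers (horizontal, linear) in the 12 MC38 libraries, coloured by group. The 4 libraries with the highest Mdk have the highest sums (43.7 to 104), whereas Ostn, Ptn and Tex101 separate by genotype.

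Of the receptors of pleiotrophin and midkine, Ptprz1 and Alk, a receptor tyrosine kinase proposed for both, were at most 0.0467 and 0.0285 FPKM in any of the 24 libraries. Syndecans, proteoglycans that carry heparan sulfate, were well expressed in MC38: Sdc1 at 17.9 to 21.9 FPKM, Sdc2 at 46.0 to 173, Sdc3 at 10.7 to 29.9 and Sdc4 at 40.9 to 60.4. Of 24 listed receptors and co-receptors, 18 passed the filter in each line. In MC38 4 rose and 5 fell under PBS, and none rose and 2 fell, Vcan and Itgb1, with the antibody, where 11.9% and 11.6% (PBS) and 5.01% and 7.05% (antibody) of all tested genes rose and fell. The 9 calls under PBS became 4 without WT PBS replicate 2 and 5 without KO PBS replicate 3. The medians were 0.03 and 0.14, beside 0.01 and 0.00 over all tested genes. The largest rises under PBS were Itgav and Lrp6, a Wnt co-receptor (0.47, limma adjusted p = 0.00217). The largest falls were Itga4, an integrin chain known from leukocytes (-1.03, limma adjusted p = 0.00275), and Vcan, the proteoglycan versican (-0.47, limma adjusted p = 0.0240). The PBS fall of Vcan passed in 14, and the anti-PD-1 fall of Itgb1 in 10, of 20 alternatives. The leukocyte sums given above were lower in the same KO libraries. In MC38 KO, Itga4 read 0.902 to 1.96 FPKM under PBS and 3.92 to 5.22 under anti-PD-1, where leukocyte sums were higher. In B16 KO it read 9.37 to 14.0 under PBS, at leukocyte sums of 4.00 to 8.35. Under anti-PD-1 it read 3.41 to 4.90 there, at sums of 16.3 to 44.2. The part of these cells was not tested. The other genes called in MC38 under PBS were Notch2, Sdc4, Sdc3, Nrp1 and Itgb1. Notch2 (0.23) and Nrp1 (-0.40) are named after their values were seen.

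Itgav, the integrin chain alpha-V, read 7.57, 6.91 and 6.36 FPKM in MC38 WT PBS and 8.98, 28.0 and 23.4 in KO PBS (log2 difference 1.27 ± 0.30, limma adjusted p = 0.0121). One KO library was close to WT and the other 2 were far above it. The difference was not called in a fit of only the 2 groups (limma adjusted p = 0.0563). B16 showed a split of similar size inside its groups, with 8.22, 9.09 and 27.7 FPKM in WT PBS and 7.73, 23.4 and 25.5 in KO PBS. In B16 under anti-PD-1, Itgav fell from 23.0 ± 0.801 in WT to 1.10 ± 0.191 FPKM in KO (n = 3, limma adjusted p = 0.000201), and Itga4 was the next in size (-1.12, limma adjusted p = 0.000359).

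Sdc3 fell in MC38 KO under PBS, from 18.7 ± 1.39 to 13.8 ± 3.13 FPKM (n = 3, limma adjusted p = 0.0441), and stood at 19.7 ± 1.78 and 27.7 ± 2.67 under anti-PD-1 (limma adjusted p = 0.0502). Sdc4 rose under PBS, from 44.7 ± 4.49 to 55.9 ± 5.82 FPKM (n = 3, limma adjusted p = 0.0498). These 2 PBS calls lay at the threshold and passed in only 7 (Sdc3) and 8 (Sdc4) of 20 alternatives. Sdc1 differed by 0.00 and -0.13 (limma adjusted p = 0.972 and 0.293), and Sdc2 by -0.47 and -0.60 (limma adjusted p = 0.0999 and 0.0680), under PBS and anti-PD-1. In B16 none of the 18 was called under PBS, where 0.279% of all tested genes were called higher and 0.191% lower. Under anti-PD-1, 3 rose and 7 fell, against 14.9% and 25.9% of all tested genes. The medians were 0.12 under PBS and -0.32 under anti-PD-1, beside -0.05 and -0.05 over all genes. Sdc4 was one that rose in B16, from 29.4 ± 4.52 to 49.98 ± 7.01 FPKM (n = 3, limma adjusted p = 0.00119).

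Among enzymes that build or cut the sugar chains, Hs6st1 and Glce rose in MC38 KO. Of 24 listed, 20 passed the filter in MC38, of which 3 rose and 3 fell under PBS and 2 rose and 2 fell under anti-PD-1, with medians of -0.04 and -0.05. These counts are near the background shares of 11.9% and 11.6%, and of 5.01% and 7.05%. Hs6st1, a sulfotransferase of heparan sulfate, rose from 5.97 ± 0.494 to 15.0 ± 0.548 FPKM under PBS (n = 3, limma adjusted p = 7.96e-05) and from 6.13 ± 1.04 to 10.6 ± 0.641 under anti-PD-1 (n = 3, limma adjusted p = 0.00195). Glce, the epimerase of the same chain, rose from 13.5 ± 2.11 to 26.3 ± 1.44 (n = 3, limma adjusted p = 0.000601) and from 11.6 ± 1.40 to 20.98 ± 2.14 FPKM (n = 3, limma adjusted p = 0.00251). Both rises passed in all 20 alternatives in both treatments. Hpse, the heparanase that cuts the chain, fell under PBS from 5.67 ± 0.831 to 2.32 ± 0.489 FPKM (n = 3, limma adjusted p = 0.00224) and read 4.85 ± 1.06 and 4.90 ± 0.914 under anti-PD-1 (limma adjusted p = 0.957). In B16, 19 passed the filter. Under PBS none was called, where 0.279% of all tested genes were called higher and 0.191% lower. Under anti-PD-1, 5 fell, near the 25.9% of all tested genes that fell, and none rose, where 14.9% did. In B16 Hs6st1 differed by -0.13 and -0.05 and Glce by 0.25 and -0.37, with no call.

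Of the other secreted factors that bind heparin, Fgf7 fell in MC38 KO. Of 16 listed, 10 passed the filter in MC38, where none rose and 1 fell under PBS and 1 rose and 1 fell under anti-PD-1 (medians -0.05 and 0.01). With 11.9% and 5.01% of all tested genes called higher, so few risers say nothing about the list. The one that fell both times was Fgf7, a growth factor of stromal cells for epithelium, from 30.3 ± 5.84 to 7.80 ± 1.63 FPKM (n = 3, limma adjusted p = 0.000110) and from 34.6 ± 3.73 to 10.4 ± 1.55 (n = 3, limma adjusted p = 0.000343). The one that rose was Pdgfb, a growth factor for pericytes, from 3.43 ± 0.308 to 5.01 ± 0.883 FPKM (n = 3, limma adjusted p = 0.0240), in 13 of 20 alternatives. In B16, 11 passed. Under PBS none was called, where 0.279% of all tested genes were called higher and 0.191% lower. Pdgfa and Pdgfb rose under anti-PD-1 (0.76 and 0.72, limma adjusted p = 0.00749 and 0.0169), where 14.9% of all tested genes rose.

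Tex101 showed the opposite pattern to Ostn and Ptn. WT libraries read 6.70, 8.97 and 4.83 FPKM under PBS, and 13.4, 10.9 and 7.04 with anti-PD-1. KO libraries read 1.39, 1.90 and 1.59 under PBS, and 0.968, 0.758 and 0.702 with anti-PD-1. All WT libraries were above all KO libraries. The WT mean was 4.20 times the KO mean under PBS (6.83 ± 2.08 against 1.63 ± 0.255 FPKM, n = 3) and 12.9 times under anti-PD-1 (10.4 ± 3.19 against 0.810 ± 0.140, n = 3). The log2 differences of KO against WT were -1.55 ± 0.22 and -2.62 ± 0.22, the 68th and the 4th lowest of 14209. The antibody groups of WT overlapped, with anti-PD-1 at 1.53 times the mean of PBS. In KO they did not overlap, and PBS was 2.01 times the mean of anti-PD-1. The KO values are low, at about 15.2 to 52.1 fragments per library against 90.2 to 323 in WT. The order of the means was WT anti-PD-1, WT PBS, KO PBS and KO anti-PD-1, in which the first pair overlapped.

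Markers of germ cells, the known site of Tex101, were at or near 0. The sum of 10 germ cell markers was at most 0.813 FPKM in any MC38 library, and Dazl, Sycp1, Piwil1 and Mael were at 0 in all 24. Relatives of Tex101 in the Ly6/uPAR family and its known partners form a list of 14, of which 12 were matched by symbol and 2 passed the filter in either line. In MC38 none was called under PBS, and 1 rose under anti-PD-1, where 5.01% of all tested genes did, and none fell (medians of the pair 0.11 and 0.55, beside 0.01 and 0.00 over all genes). The riser was Plaur, the urokinase receptor, from 13.01 ± 0.983 to 18.1 ± 1.10 FPKM (n = 3, limma adjusted p = 0.0127), a call lost in the fit of all 24 libraries (0.176). Plaur read 12.1 ± 1.82 in WT and 14.0 ± 0.132 in KO under PBS (limma adjusted p = 0.131). The second gene tested, named here after its values were seen, was Ace, the angiotensin-converting enzyme, with differences of 0.01 and 0.65 (limma adjusted p = 0.991 and 0.466). In B16 neither was called.

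The nearest 2 protein-coding genes on either side, by midpoint, were read for each of the 4 genes. The gaps ran from 527 bases (Dgkz, beside Mdk) to 1175041 bases (Mtpn, beside Ptn). Beside Ostn, Gmnc was at 0 in all MC38 libraries and Uts2b reached at most 0.130 FPKM. Il1rap, the co-receptor of interleukin-1, fell in KO, from 16.3, 18.1 and 14.6 FPKM to 8.60, 6.88 and 6.91 under PBS (limma adjusted p = 0.000163) and from 21.5, 17.9 and 19.9 to 9.24, 8.87 and 9.53 under anti-PD-1 (limma adjusted p = 0.000331). Ccdc50 fell by 0.43 on the log2 scale under PBS (limma adjusted p = 0.00150) and differed by -0.14 under anti-PD-1 (limma adjusted p = 0.183). So neither neighbour of Ostn that passed the filter rose with it. Ccdc50 lies 37657 bases and Il1rap 577372 bases from Ostn, and Gmnc and Uts2b were too low to test. Beside Ptn, Chrm2 and Dgki were at most 0.0101 and 0.126 FPKM in MC38, and Mtpn differed by 0.14 and 0.02 (limma adjusted p = 0.104 and 0.825). Creb3l2 fell under anti-PD-1 (-0.44, limma adjusted p = 0.0247), in 13 of 20 alternatives. Beside Tex101, Lypd3, a relative in the same family, reached at most 0.288 FPKM, BC049730 and Gm4763 were at 0 in the 12 MC38 libraries, and Phldb3 differed by -0.13 and 0.06 (limma adjusted p = 0.476 and 0.768).

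Chrm4, a muscarinic acetylcholine receptor next to Mdk, rose in MC38 KO where Mdk did not pass. It read 1.29, 1.01 and 1.5 FPKM in WT and 4.09, 2.89 and 3.89 in KO under PBS (limma adjusted p = 0.00137), and 1.12, 2.09 and 1.5 against 3.53, 3.35 and 2.91 under anti-PD-1 (limma adjusted p = 0.0113). Ambra1, Gm9821 and Dgkz, the other neighbours of Mdk, were not called in MC38.

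**Figure D4:**
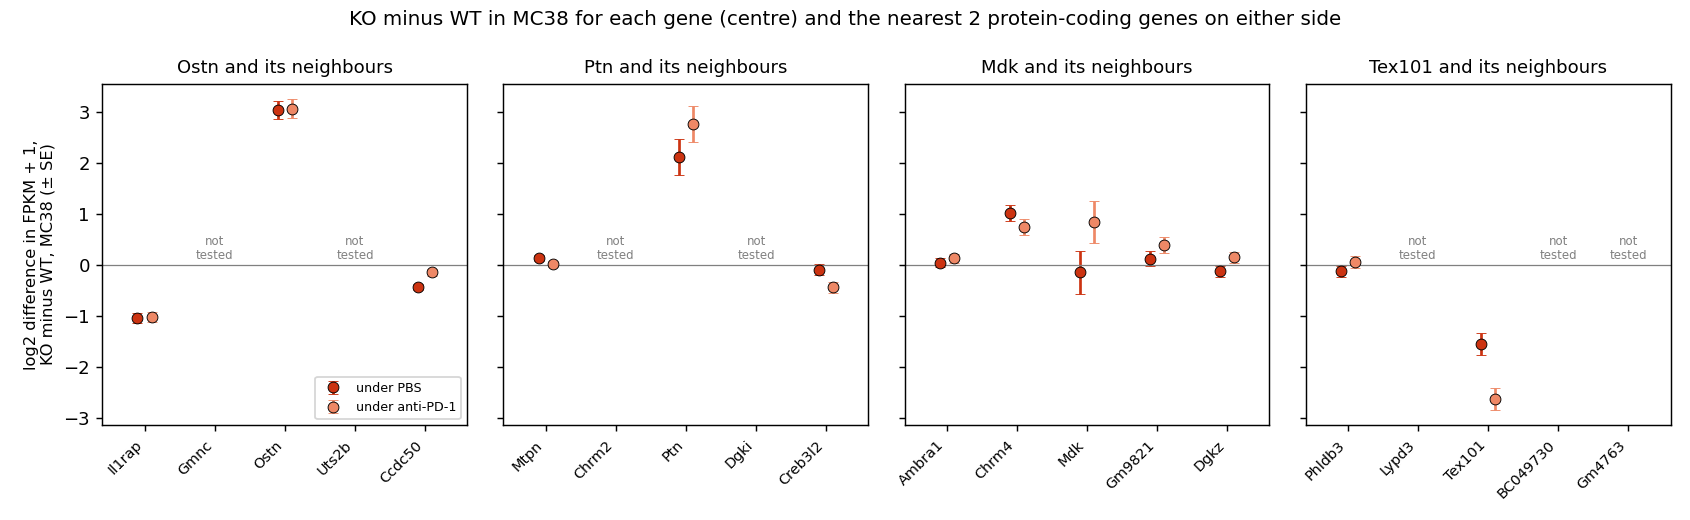
Log2 difference in FPKM + 1, KO minus WT in MC38 (points, error bars ± SE), under PBS and anti-PD-1, for each of the 4 genes and its nearest 2 protein-coding genes on either side. Genes stand in the order of their midpoints on the chromosome and not to distance. Genes under the filter are marked as not tested. Ostn and Ptn stand above their neighbours and Tex101 below Phldb3, and Il1rap lies near -1 and Chrm4 at 0.75 to 1.02.

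Genes whose log2 values were most like those of each gene over the 12 MC38 libraries are given as a description; the 12 share 4 groups, so a gene that differs between WT and KO reaches a high correlation. For Ostn they were Vmn2r96 (r = 0.987), Taf7l (0.985), Mamdc2 (0.983) and Bmp5 (0.981). Bmp5, a bone morphogenetic protein, was 0.158 to 0.632 FPKM in WT and 4.91 to 9.97 in KO. Taf7l, a transcription factor subunit known from the testis, was 0.209 to 0.575 in WT and 3.30 to 4.90 in KO. For Ptn they were Mmp28 (0.957), Upf2 (0.955), Bmp5 again (0.950) and Cep19 (0.945), of which Upf2 moved little, from 11.1 to 12.6 FPKM in WT to 13.5 to 14.4 in KO. For Tex101 they were Arsj (0.986), Xlr3c (0.969), Msx1 (0.964) and Ccsap (0.962). All of these had the same order of group means as Tex101, which picking by a high correlation favours. For Msx1, a homeobox factor, the means were 2.51 ± 0.138 FPKM in WT anti-PD-1, 2.14 ± 0.229 in WT PBS, 1.45 ± 0.196 in KO PBS and 0.945 ± 0.117 in KO anti-PD-1 (n = 3). Xlr3c has near-identical copies, so its counts are uncertain. For Mdk they were Tmem98 (0.982), A2m (0.967), Epha3 (0.962) and Ccn3 (0.959), and Ccn3, a matricellular protein, was highest in the same libraries as Mdk, at 33.2 in KO anti-PD-1 replicate 2 and 22.4 in WT anti-PD-1 replicate 1.

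Once each group's mean was removed, the 4 genes had little in common over the 12 MC38 libraries. The deviations of Ostn correlated at r = -0.24 with those of Ptn and -0.37 with those of Tex101, and those of Ptn at 0.43 with Mdk. These are descriptions over 12 libraries that share group means.

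In B16 tumours Ostn, Ptn and Tex101 stayed under 1 FPKM in both genotypes. Ostn read 0.316, 0.380 and 0 FPKM in WT PBS, 0.637, 0 and 0.287 in WT anti-PD-1, 0.726, 0.504 and 0.774 in KO PBS and 0, 0.342 and 0.213 in KO anti-PD-1. KO PBS lay above WT PBS with no overlap, at about 11.5 to 17.7 fragments per library, and without the filter this was not called (limma adjusted p = 0.527). KO anti-PD-1 lay below KO PBS with no overlap, a log2 difference of -0.50 that was not called without the filter (limma adjusted p = 0.107) but was in the fit of all 24 libraries (0.0439). Ptn read 0.0338 to 0.343 FPKM in WT, 0.0497 to 0.0644 in KO PBS, and 0.857, 0.978 and 0.0293 in KO anti-PD-1. The first pair of these rest on about 45.5 and 59.7 fragments, and their libraries had fibroblast sums of 349.5 and 178 FPKM against 50.8 in the third. The sums of muscle (1901, 167.9 and 9.95), fat (86.1, 57.45 and 18.1) and pericyte markers (129, 33.7 and 30.3) ran in the same order. In WT, fibroblast sums of 155.7 and 126 (anti-PD-1 replicates 2 and 3) and 120.9 (PBS replicate 2) went with Ptn of 0.140, 0.282 and 0.343. The other WT libraries, with sums of 10.7 to 71.7, had Ptn of 0.0338 to 0.106. Whether the Ptn values stem from any of these cells was not tested. Tex101 was at 0 in 9 of 12 libraries, and at most 0.0363 FPKM. None of the 3 genes reached 1 FPKM in any B16 library, so the fit across genes left them out. An exact permutation test of mean FPKM, KO against WT with labels exchanged within each treatment (400 arrangements, smallest possible p = 0.005, two-sided), gave p = 0.315 for Ostn (KO minus WT 0.157 FPKM), 0.400 for Ptn (0.175), 0.820 for Mdk (0.0729) and 0.5 for Tex101 (-0.00979), n = 6 in each arm. Adjusted over these 4 tests, the exact permutation values were 0.667 for Ostn, Ptn and Tex101 and 0.820 for Mdk. Without any 1 library the differences stayed positive for Ostn and Ptn and negative for Tex101. For Ostn, Ptn and Mdk the differences average treatments that ran opposite ways. Ostn KO and WT means were 0.668 and 0.232 FPKM under PBS, but 0.185 and 0.308 under anti-PD-1. Those of Ptn were 0.0562 and 0.175 under PBS, but 0.621 and 0.152 under anti-PD-1. For Mdk they were 0.453 and 0.917 under PBS, but 1.457 and 0.847 under anti-PD-1.

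Mdk was the only one of the 4 to reach 1 FPKM in both lines, in 4 of 12 libraries of each. B16 libraries read 0.600, 1.56 and 0.595 FPKM in WT PBS, 1.05, 0.980 and 0.507 in WT anti-PD-1, 0.267, 0.367 and 0.725 in KO PBS and 2.03, 1.45 and 0.891 in KO anti-PD-1. In KO, anti-PD-1 lay above PBS with no overlap, a log2 difference of 0.74 ± 0.24 that was called (limma adjusted p = 0.0278, 0.0161 to 0.107 over 20 alternatives). In this comparison 43.9% of all tested genes were called. Leaving out replicate 1 (limma adjusted p = 0.0847) or 2 (0.0728) of KO PBS ended the call, as did leaving out replicate 1 (0.107) or 2 (0.0628) of KO anti-PD-1. With a pseudocount of 0.1 the difference was 1.51. The call was also lost with no filter (0.0669) and in the fit of all 24 libraries (0.0975). Without KO anti-PD-1, too few B16 libraries reached 1 FPKM for the filter, so Mdk was tested through its highest group. KO anti-PD-1 replicate 1, with the highest Mdk, also had the highest B16 sums of pericyte (129), fibroblast (349.5) and muscle (1901) markers. Their part was not tested.

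The other B16 comparisons of Mdk did not pass. KO against WT gave -0.38 ± 0.24 under PBS (limma adjusted p = 0.552) and 0.40 ± 0.24 under anti-PD-1 (limma adjusted p = 0.203). Averaged over treatments the value was 0.01 ± 0.17 (limma adjusted p = 0.970, background 26.5%), and the interaction was 0.77 ± 0.34 (limma adjusted p = 0.12, background 23.5%). In WT the antibody gave -0.03 ± 0.24 (limma adjusted p = 1.0); limma called 0 of 13627 genes there (0%), and 281 had an unadjusted p under 0.05. The averaged KO effect on Mdk differed between MC38 and B16 by 0.34 ± 0.36 (limma adjusted p = 0.501), in a comparison with 31.3% of genes called. For Ostn, Ptn and Tex101 that difference between the lines was 2.90 ± 0.20, 2.30 ± 0.31 and -2.07 ± 0.17, given without a test because the MC38 values chose these genes.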

How the data were processed

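Total RNA of tumour tissue was sequenced, per the labels' protocols. The deposited files hold 1 value for each of 55335 genes in 24 libraries, with no unit named. They were taken as FPKM made by the authors, because the submitters' processing notes name Cuffnorm, beside STAR 2.5 and DESeq, and because the values are not whole and sum to different totals. The annotation, the filters and any scaling between libraries are not given in the sources used here. Groups came from the labels. Symbols came from GENCODE for the same build (55154 IDs matched, 181 did not). Log2(FPKM + 1) was fitted in R 4.3.3 with limma 3.58.1, 1 mean per group and 12 libraries per line, with a mean-variance trend. A gene was tested where 3 or more libraries held 1 FPKM or more (14209 in MC38, 13627 in B16, 15655 for the lines together), with Benjamini-Hochberg adjustment over all of them and a threshold of 0.05. Depth and fragment numbers were estimated from low values and the longest transcript model. FPKM depends on the transcript length used, and the pseudocount understates changes of low genes.

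The genes, lists and markers were chosen with earlier results of these data known. Named were the 4 genes, Chek2, Npr3, Ptprz1, Alk, the syndecans and Plaur, up to 2 called genes of a list in each direction, 4 genes of highest correlation and the nearest 2 genes on each side. On simulated data with 200 genes changed, limma recovered 49.3% of 67 genes changed 1.5-fold and 85.1% of 67 changed 2-fold for MC38 KO against WT under PBS (14209 genes), and 43.3% and 71.6% for B16 (13627 genes).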

Additional observations from a re-analysis of the deposited data

Results flagged for a closer look

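Ptn went in opposite directions in the lines under PBS: every MC38 KO library was above every WT library, and every B16 KO library was below every WT library, by 0.119 FPKM on average (KO minus WT, -0.119), at about 2.2 fragments per KO library. Without the filter this B16 difference was not called (log2 difference -0.15, limma adjusted p = 0.938), and the difference between the lines was not tested. Under anti-PD-1 the B16 KO mean of Ptn was above the WT mean (0.621 against 0.152 FPKM), the direction seen in MC38, and the groups overlapped. Tex101 in MC38 went up with the antibody in WT on average and down in KO, a genotype by treatment difference of -1.08 on the log2 scale, which was not tested because these values chose the gene, and the WT groups overlapped. Sdc3 in MC38 had an interaction of 0.90 (limma adjusted p = 0.0429): KO was below WT under PBS and above it under anti-PD-1. Sdc1 in B16 had an interaction of 0.42 (limma adjusted p = 0.0261), from 15.4 ± 0.996 FPKM in WT and 14.1 ± 1.12 in KO under PBS to 13.9 ± 0.983 and 17.4 ± 0.471 under anti-PD-1. The averaged KO effect on Sdc2 was lower in MC38 than in B16 by 0.69 (difference -0.69, limma adjusted p = 0.00317). That on Npr2 was higher in MC38 by 0.58 (limma adjusted p = 0.000994).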

How the results depend on the processing

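No paired analysis was possible because the labels carry no replicate numbers; those used here only name the libraries. Pseudocounts changed sizes, not directions, of the MC38 differences: with 0.1 and 0.5 in place of 1, Ostn was higher in KO by 4.19 and 3.54 (PBS) and by 4.46 and 3.65 (anti-PD-1), Tex101 was -1.97 under PBS (0.1), and -3.50 and -3.02 with anti-PD-1, and Ptn reached 2.42 and 3.25 under PBS and anti-PD-1. Leaving out single libraries gave 2.91 to 3.24 and 2.99 to 3.20 for Ostn, 1.99 to 2.37 and 2.48 to 3.13 for Ptn and -1.74 to -1.35 and -2.86 to -2.44 for Tex101. Mdk in MC38 KO with the antibody was 1.29 in the fit of all 24 libraries, 2.28 with pseudocount 0.1 and 0.89 to 1.64 with single libraries left out, and in WT -0.16 to 0.59. Mdk in B16 KO with the antibody was 0.74 without the filter and with all 24 libraries, where its call was lost, 1.51 with pseudocount 0.1, and 0.58 to 0.92 with libraries left out; in B16 WT it was -0.14 to 0.20. The averaged B16 effect on Mdk, near 0, was -0.0666 and -0.0064 with pseudocounts 0.1 and 0.5 and -0.0712 to 0.12 with libraries left out, and the mean difference of the permutation test -0.143 to 0.210 FPKM.

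Counts of called genes behind the background shares moved more. For MC38 with the antibody in WT they were 5 with no filter, 79 with all 24 libraries, 3 with only the 2 groups and 0 to 7 with libraries left out. In KO they were 594 with only the 2 groups and 616 to 1358 with libraries left out (over 1.5 times fewer without replicate 2 or 3 of either KO group), against 1277. The MC38 interaction had 45 with no filter, 218 with all 24 libraries and 48 to 725 with libraries left out (725 without KO PBS replicate 1, and over 1.5 times fewer without any other library except KO anti-PD-1 replicate 1), against 346. For B16 KO against WT under PBS, 64 became 42 (pseudocount 0.1), 33 (no filter), 28 (upper-quartile rescaling), 41 (no trend), 331 (all 24 libraries), 24 (only the 2 groups) and 10 to 81 with libraries left out (over 1.5 times fewer without any PBS library or WT anti-PD-1 replicate 2 or 3). B16 WT with the antibody had 1 with all 24 libraries, 3 with only the 2 groups and 0 to 2 with libraries left out. For MC38 KO against WT, 3329 under PBS became 2108 to 3280 (lowest without WT PBS replicate 2) and 1714 under anti-PD-1 became 837 to 1833 (over 1.5 times fewer without WT anti-PD-1 replicate 1 or 3 or any KO anti-PD-1 library). Counts of called list genes moved as well when 1 library was left out. In MC38 PBS tumours, KO against WT, the natriuretic 5 became 3 without WT PBS replicate 2, WT anti-PD-1 replicate 3, KO PBS replicate 2 or 3 or KO anti-PD-1 replicate 2, and the enzymes' 6 became 3 without WT PBS replicate 2. The heparin-binding factors' 1 became 3 without WT PBS replicate 3, which also gave the Tex101 relatives 1 call in place of 0. It became 2 when replicate 3 of WT anti-PD-1 or replicate 1 of KO anti-PD-1 was left out. In MC38 anti-PD-1 tumours, the natriuretic 5 became 2 or 3 without WT replicate 1 or 3 or any KO library, and the receptors' 2 became 1 without WT replicate 1 or 3, KO replicate 1 or 3 or KO PBS replicate 2. There the enzymes' 4 became 2 without WT replicate 1 or 3 or KO replicate 1, and the heparin-binding factors' 2 became 1 without WT replicate 1 or 2 or KO replicate 2 or 3. In B16 anti-PD-1 tumours, the enzymes' 5 became 3 without WT replicate 3, and the heparin-binding factors' 2 became 5 without WT replicate 2, 4 without KO replicate 3 and 1 without WT replicate 3 or KO replicate 1. The cause was not tested. Precision rests on 3 libraries per group.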
